A study of Mus musculus with 6 samples.

Results

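The regions described here are the peaks of ATRX and of DAXX in wild-type J1 mouse embryonic stem cells (WT), compared with each other. They were chosen by list membership alone: the 1440 peaks of the list labelled WT ATRX and the 570 peaks of the list labelled WT DAXX, 2010 of the 7165 peaks in the 6 lists of the series. A peak was counted as shared when it had 1 bp or more in common with a peak of the other list. The labels name no engineered allele in these cells. They were grown in embryonic stem cell medium with the MEK inhibitor PD0325901 at 1 μM and the GSK3 inhibitor CHIR99021 at 3 μM, and fixed with paraformaldehyde before precipitation. The antibodies were SC-15408 against ATRX and SC-7152 against DAXX, and a precipitate with rabbit IgG, which held 402 peaks, served as the background. The other lists come from cells without DNA methyltransferases (TKO), grown in the same medium, and are used only to show which WT sites recur there. Each combination of cells and antibody is 1 library, so no value below has a replicate error and no difference between lists was tested.

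ATRX is a chromatin remodeller of the SNF2 family, and DAXX is a histone chaperone that binds the histone variant H3.3. As background, DAXX and ATRX are known to act as a complex that deposits H3.3 at telomeres, at pericentric repeats and at some retroviral elements in embryonic stem cells. ATRX supplies the remodelling activity and also binds histone H3 that carries trimethylated lysine 9. The series asks whether this complex acts at repeats when DNA methylation is lost, and the comparison within WT cells gives the state before that loss: how often the partners were listed at the same place.

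The lists differ in ways that touch every count below. Of the WT ATRX peaks, 750 (52.1%, 95% interval 49.5 to 54.7) have the same start and end as a peak of the list labelled TKO DAXX, which is another antibody in other cells, so results are also given without them. Which label those peaks belong to cannot be told from the lists. The score is the authors' own value for each peak, read as 10 times the negative log10 of a p-value, and it ranks peaks within 1 list only. The WT ATRX list begins at a score of 70.01 and the WT DAXX list at 50.02. Sequencing depth is unknown, so a missing peak does not show a missing protein. Intervals are exact binomial ones over peaks and cover counting error only.

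Few sites carried a peak of both factors. The ATRX list had 33 shared peaks of 1440, or 2.29% (1.58 to 3.20), and the DAXX list had 32 of 570, or 5.61% (3.87 to 7.83). Joined, they made 32 regions, because a DAXX peak on chromosome 5 covered 2 ATRX peaks. The IgG background met the factor lists less often, though its list is also shorter, at 402 peaks. An IgG peak overlapped 2 ATRX peaks, or 0.139% (0.0168 to 0.501), and 1 DAXX peak, or 0.175% (0.00444 to 0.974). None of the 32 regions overlapped an IgG peak of either cell line. Whether the IgG libraries were the control of the peak calls is not stated. How far the calling itself set these low overlaps therefore cannot be told. Without the 750 peaks that recur in TKO DAXX, 24 of 690 ATRX peaks were shared (3.48%, 2.24 to 5.13), and 24 of 570 DAXX peaks (4.21%, 2.72 to 6.20).

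Where the lists met, the peaks lay on top of each other. In 24 of the 33 overlapping pairs the ATRX peak lay wholly within the DAXX peak, and in 1 pair the reverse held. ATRX peaks are the shorter ones, with a median of 325 bp against 553.5 bp over the whole lists. The part of length in this order was not tested. The overlap ran from 167 to 1912 bp with a median of 346 bp. It covered at least 56.8% of the ATRX peak in each pair. The midpoints of the peaks were 3 to 402 bp apart with a median of 50.5 bp, and in 23 pairs they were within 100 bp. No pair therefore depended on a touch at the edges. The shortest overlaps, 167 bp each, belonged to 3 regions at the low end of chromosome 14 whose ATRX peaks are only 167 bp long. The closest pairs that just missed were on chromosome 7, where an ATRX peak ending at 17,200,527 lay 280 bp before a DAXX peak starting at 17,200,808, and on chromosome 4, where a DAXX peak ending at 45,355,041 lay 346 bp before an ATRX peak starting at 45,355,388. Their ATRX scores were 83.2 and 74.93 and their DAXX scores 50.8 and 54.68. The next gap was 2636 bp, on chromosome 3 between an ATRX peak at 30,497,114 (score 71.4) and a DAXX peak at 30,500,048 (141.53), so the choice between 1 bp of overlap and 1 kb of distance concerned these 2 pairs alone.

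**Figure D1:**
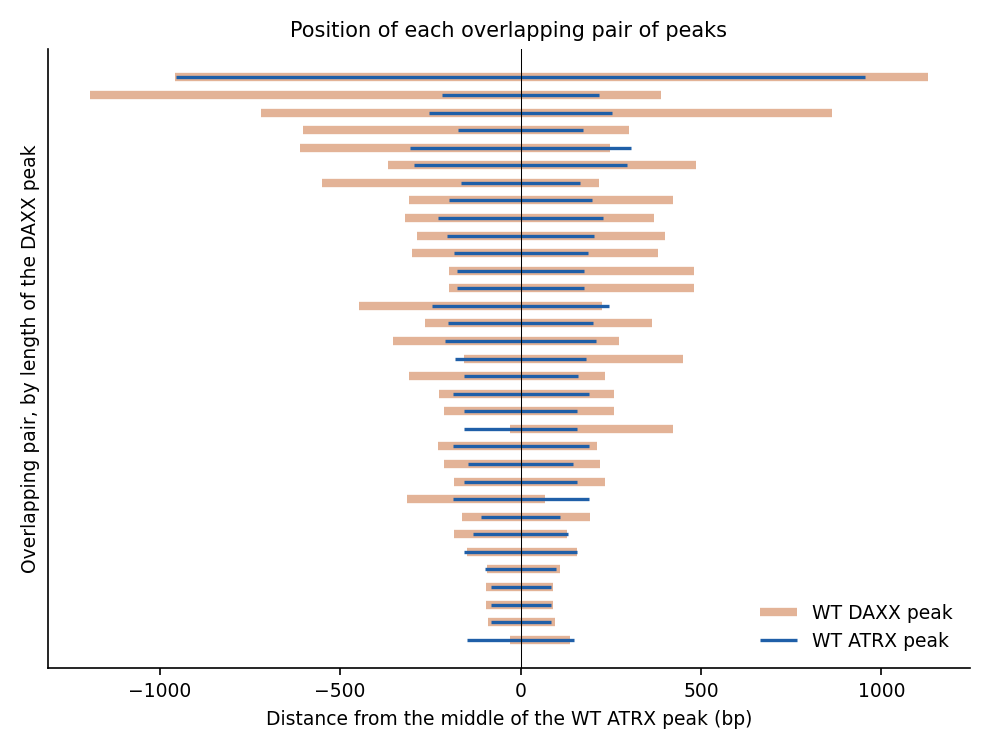
Each row is 1 of the 33 overlapping pairs, with the WT ATRX peak in blue and the WT DAXX peak in orange, placed in bp from the middle of the ATRX peak and ordered by the length of the DAXX peak. In 24 rows the blue bar lies inside the orange one, and the midpoints are at most 402 bp apart.

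Shared peaks stood high in the score order of the ATRX list, and no place apart was shown for them in the DAXX list. In the ATRX list their median score was 108.1 against 81.25 for the 1407 unshared peaks, and the median percentile of their score within the list was 89.9 (95% interval of the median 78.3 to 91.5), against 49.2 for the unshared ones. Of the highest quartile of ATRX peaks, 23 of 359 were shared (6.41%, 4.10 to 9.46), against 4 of 362 in the quartile below it (1.10%, 0.302 to 2.80) and 3 in each of the remaining quartiles. In the DAXX list the median score was 63.86 for shared peaks and 73.12 for the 538 unshared ones, and the median percentile of the shared peaks was 40.1, with an interval from 27.3 to 52.0 that holds the 51.1 of the unshared ones. The share was 4 of 143 in the highest quartile of the DAXX list (2.80%, 0.767 to 7.01) and 14 of 143 in the quartile just below the median (9.79%, 5.46 to 15.9). These 2 intervals overlap.

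**Figure D2:**
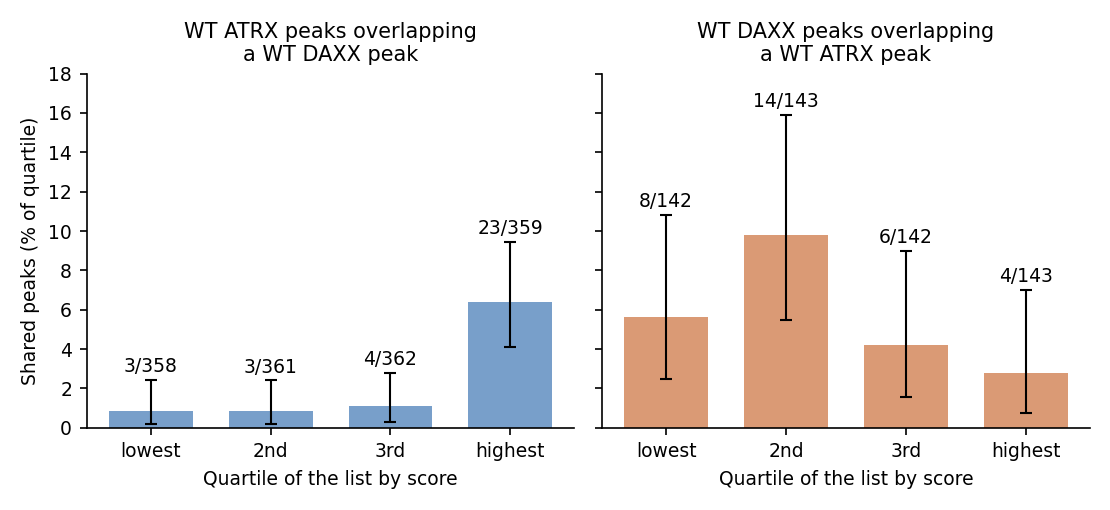
Bars give the percentage of shared peaks in each quartile of the WT ATRX list (left) and the WT DAXX list (right) by score, error bars are exact 95% binomial intervals over peaks, and the numbers are shared over all peaks. The ATRX share is 6.41% in the highest quartile and 1.10% or less in the others, while the DAXX share is 2.80% in its highest quartile.

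Few of the highest-scoring DAXX peaks were shared, and their number is too small to set them apart from the 5.61% of the whole list. Of the 59 that scored 300 or more, 0 were shared. Taken as 3 counts of the total, this allows a share of up to 5.08%, and the exact interval reaches 6.06%. Of the 89 that scored 200 or more, 1 was shared (1.12%, 0.0284 to 6.10). Both exact intervals hold the share of the whole list. Of the 271 DAXX peaks that scored under 70, a range that the ATRX list does not cover, 20 were shared (7.38%, 4.57 to 11.2). At a common score of 70 only 12 of the 32 regions were left, with 13 of 1440 ATRX peaks (0.903%, 0.482 to 1.54) and 12 of 299 DAXX peaks (4.01%, 2.09 to 6.91). At a score of 100 or more in both lists 4 regions were left. These cuts are not equally strict in the lists, because a score ranks peaks within 1 list only and the lists begin at different scores. Among ATRX peaks, 19 of the 214 that scored 100 or more were shared (8.88%, 5.43 to 13.5), against 6 of the 651 under 80 (0.922%, 0.339 to 2.00).

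The rise along the ATRX list was also there without the peaks that recur in TKO DAXX. Those made up 254 of the 359 ATRX peaks in the highest quartile (70.8%, 65.7 to 75.4), but 9 of the 33 shared ATRX peaks (27.3%, 13.3 to 45.5). Within that quartile 15 of the 105 peaks outside the recurring set were shared (14.3%, 8.22 to 22.5), against 8 of the 254 inside it (3.15%, 1.37 to 6.11). In the lower quartiles the numbers were 9 of 585 (1.54%, 0.706 to 2.90) and 1 of 496 (0.202%, 0.0051 to 1.12). Without the recurring peaks the median percentile of the shared ATRX peaks was 91.2 and that of their DAXX partners 36.1.

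Across the 32 regions the scores of the partners did not rise together, with a Spearman rho of -0.06 over 32 regions that share both libraries, given as a description. In 18 regions the ATRX score lay above the median of its list and the DAXX score did not, in 2 the opposite held, in 8 both lay above and in 4 neither did. The ATRX percentile was the higher of the pair in 27 regions. Each percentile ranks a peak within its own list, and the lists begin at scores of 70.01 and 50.02 and differ in length. These counts therefore do not compare the strength of the factors.

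**Figure D3:**
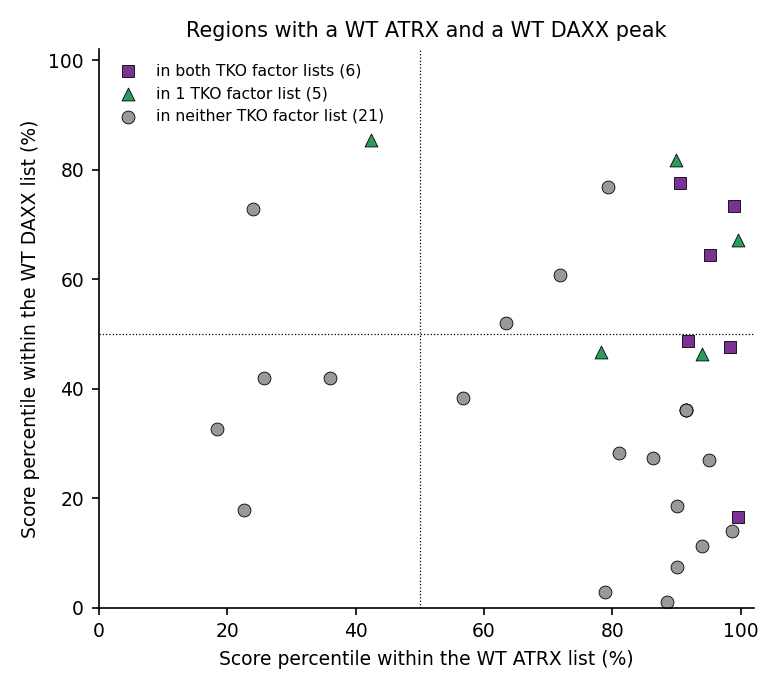
Each point is 1 of the 32 regions with both factors, placed by the percentile of its ATRX score within the WT ATRX list and of its DAXX score within the WT DAXX list, with dotted lines at 50. Most points lie on the right with a low or middle DAXX percentile, and the 3 regions of equal scores on chromosome 14 lie on top of each other at 91.5 and 36.1.

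The region with the best mean percentile was on chromosome 18 from 75,759,239 to 75,760,092, with an ATRX score of 174.58 and a DAXX score of 126.62. The second, on chromosome 10 from 127,111,639 to 127,112,327, scored 108.1 for ATRX and 173.79 for DAXX, and its ATRX peak does not recur in TKO DAXX. On chromosome 5 the region from 33,014,588 to 33,016,170 held a DAXX peak of 1583 bp (score 148.47) over 2 ATRX peaks that scored 84.26 and 109.77. These are 3 of the 4 regions in which both scores reached 100.

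The other region of that kind lay on chromosome 7 from 7,230,576 to 7,231,256, with an ATRX score of 202.76, rank 7 of its list, and a DAXX score of 100.8. It was followed by chromosome 2 from 26,502,151 to 26,502,777 (ATRX 123.82, DAXX 94.16) and chromosome 4 from 97,535,599 to 97,536,030 (ATRX 93.84, DAXX 147.23). The chromosome 4 site was in neither TKO list, and the midpoints of its peaks were 4 bp apart. Next came chromosome 9 from 123,842,855 to 123,844,940, the longest of the regions at 2086 bp (ATRX 146.64, DAXX 70.38). Its 2 peaks began within 1 bp of each other.

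Of the rest of the 12 best-placed regions, 1 had a DAXX score above 100. Chromosome 18 from 73,607,326 to 73,607,746 scored 112.33 and 71.08 for ATRX and DAXX. The region at 111,158,743 to 111,159,247 of chromosome 13 scored 116.58 for ATRX and 69.68 for DAXX. On chromosome 11, the peaks between 40,902,919 and 40,903,232 scored 90.16 for ATRX and 86.92 for DAXX. Chromosome 5 from 72,559,140 to 72,559,718 had the highest DAXX score among the shared regions, 209.44, with an ATRX score of 79.12 in the lower part of its list. Equal in twelfth place were 3 short regions on chromosome 14, described next, of which the first is counted here. The other 20 regions had ATRX scores from 73.45 to 200.72 and DAXX scores from 50.11 to 122.14, under 70 in 18 of them. The highest ATRX score among these 20 belonged to chromosome 1 from 184,430,835 to 184,431,526, whose DAXX score was 53.44.

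Some shared regions looked like copies of each other, a property noticed after the values were seen. On chromosome 14 the regions from 5,659,246 to 5,659,430, from 5,945,292 to 5,945,476 and from 6,748,843 to 6,749,027 each held an ATRX peak of 167 bp with a score of 111.61 and a DAXX peak of 185 bp with a score of 61.36. The ATRX peak began 6 bp after the DAXX peak in the first and 12 bp after it in the others. On chromosome 12 the regions from 19,331,548 to 19,332,225 and from 20,547,694 to 20,548,371 each held an ATRX peak of 353 bp that began 21 bp after a DAXX peak of 678 bp. Their DAXX scores were 64.62 each and their ATRX scores 77.8 and 75.41.

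These 5 regions fall into 2 sets, and with each set counted once 29 regions were left. The same layout occurred at a distance on chromosome 4, where a DAXX peak of 416 bp (score 58.53) lay 4935 bp from an ATRX peak of 214 bp (73.44) both at 145,849,869 and at 146,395,225. Equal length and score is by itself common in the ATRX list, where 355 of 1440 peaks (24.7%) share both values with another peak, mostly on other chromosomes: 11 of 135 such sets lay on 1 chromosome. In the DAXX list it is rarer, with 27 of 570 peaks (4.74%) in 12 sets, and 9 of these sets, with 21 peaks, lay on 1 chromosome each. Of those 21 peaks 5 were shared ones. The counting of reads at repeated sequence was not tested, and the sequence of these sites was not used here.

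The low end of chromosome 14 was also rich in background. Its first 10 Mb held 4 of the 32 shared regions, 12 of 49 ATRX peaks and 5 of 28 DAXX peaks of that chromosome, and 40 of its 50 IgG peaks. The fourth region there, from 6,168,908 to 6,169,451, had scores of 108.38 for ATRX and 54.29 for DAXX. The nearest WT IgG peak was 4743, 4748 and 4743 bp from the 3 short regions and 111397 bp from the fourth. Those 3 were the only shared regions within 10 kb of a WT IgG peak, and the median distance over all 32 was 2710 kb. The part of background signal in these regions was not tested.

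The shared peaks in the first 10 Mb of chromosomes were mostly those of chromosome 14, and no difference from the unshared peaks was shown at either chromosome end. The first 10 Mb, which lie next to the centromere in mouse, held 5 of 33 shared ATRX peaks (15.2%, 5.11 to 31.9) and 92 of 1407 unshared ones (6.54%, 5.30 to 7.96). For DAXX the numbers were 5 of 32 (15.6%, 5.28 to 32.8) and 35 of 538 (6.51%, 4.57 to 8.93), and for IgG 87 of 402 (21.6%, 17.7 to 26.0). The 5 regions were the 4 on chromosome 14 and the one on chromosome 7 at 7,230,576. Without the first 10 Mb of chromosome 14 the order turned, with 1 of 29 shared ATRX peaks (3.45%, 0.0873 to 17.8) against 84 of 1399 unshared ones (6%, 4.82 to 7.38). For DAXX it was 1 of 28 (3.57%, 0.0904 to 18.3) against 34 of 537 (6.33%, 4.42 to 8.74). The last 10 Mb before the highest listed peak held 7 of the 33 shared ATRX peaks (21.2%, 8.98 to 38.9) and 7 of the 32 shared DAXX peaks (21.9%, 9.28 to 40). In that window lay 212 of the 1407 unshared ATRX peaks (15.1%, 13.2 to 17.0) and 78 of the 538 unshared DAXX peaks (14.5%, 11.6 to 17.8), values that the intervals of the shared peaks hold.

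Regions with both factors were found on 15 chromosomes. Chromosome 14 led with 4 regions, and chromosomes 4, 5, 6, 11 and 13 had 3 each. Chromosomes 3, 8, 15, 16 and 19 had 0 and are grouped for that, so their joint 0 is no result. Over the whole list 5.61% of DAXX peaks were shared, so few regions fall to any 1 chromosome. Together the 5 chromosomes held 326 ATRX and 120 DAXX peaks. Chromosome 8 alone held 112 ATRX and 27 DAXX peaks. The list of ATRX peaks was 2.53 times as long as that of DAXX peaks. Among chromosomes with peaks of both factors, this ratio ran from 1.21 on chromosome 13 to 6.38 on chromosome 18. Chromosome Y carried 2 DAXX peaks and 0 ATRX peaks.

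**Figure D4:**
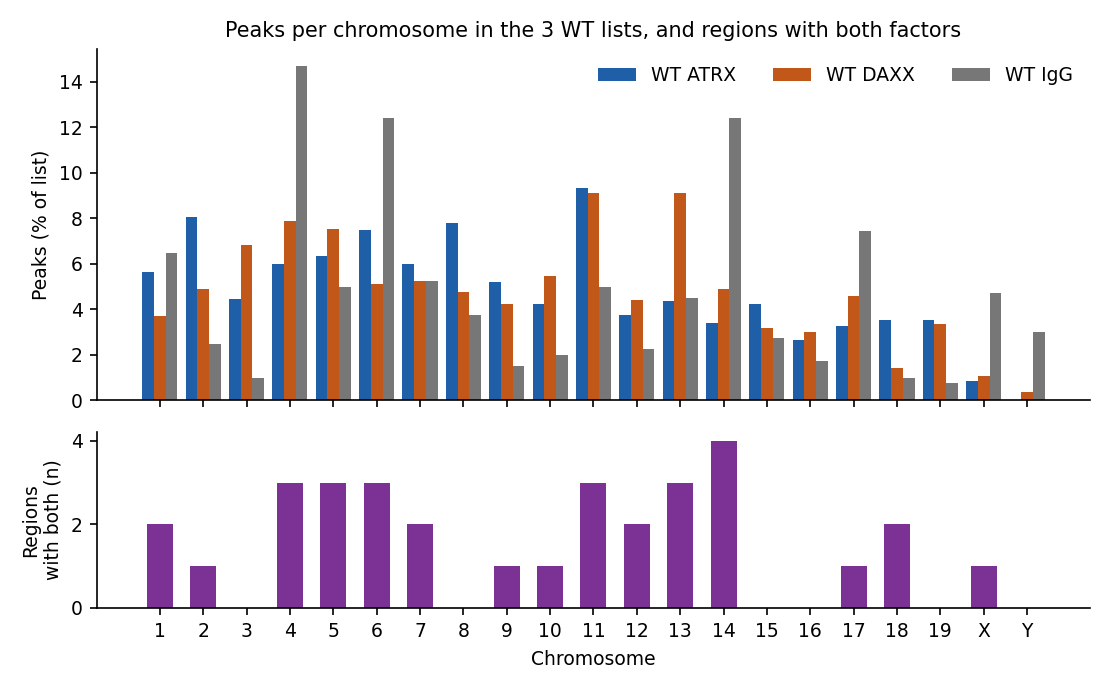
The upper panel gives the percentage of each WT list (ATRX, DAXX and IgG) that lies on each chromosome, and the lower panel the number of regions with both factors. IgG peaks are most frequent on chromosomes 4, 6 and 14, chromosomes 11 and 13 each hold 9.12% of the DAXX list while chromosome 13 holds 4.38% of the ATRX list, and 5 chromosomes that carry both factors have 0 regions in common.

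The DAXX peaks of chromosome 13 came largely from 1 place. The 5 Mb from 20 Mb held 36 DAXX peaks, 6.32% of the list, between 21,252,479 and 23,618,696, with scores from 50.8 to 161.15 and a median of 78.28. The same 5 Mb held 3 ATRX peaks and 8 IgG peaks, and the closest ATRX peak to any of the 36 was 16667 bp away. The next densest bins of the DAXX list were chromosome 4 from 145 Mb, with 14 DAXX, 8 ATRX and 48 IgG peaks, and chromosome 3 from 95 Mb, with 13 DAXX, 3 ATRX and 0 IgG peaks. None of these 3 bins, picked for their DAXX density, held a shared region. Over the whole lists 2.29% of ATRX peaks and 5.61% of DAXX peaks were shared. The bins were picked after their values were seen, so the 0 is not read as a result about these places. Whether sharing is rarer there was not tested. As background, mouse chromosomes 13 and 3 carry clusters of histone genes. Whether the DAXX peaks lie at those genes was not analysed here.

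The ATRX list had a dense place of its own on chromosome 9. Its first 10 Mb held 12 ATRX peaks, 11 of them between 2,999,985 and 3,038,280, with a highest score of 416.54 that was also the highest of the list. The same 10 Mb held 2 IgG peaks and 0 of the 570 DAXX peaks, which, taken as 3 counts of the total, allows a share of up to 0.526%, and the nearest DAXX peak was 13 Mb from any of the 12. The first 10 Mb of chromosomes 2, 4, 13, 18 and X also held 0 DAXX peaks. Those of all chromosomes together held 40 of 570 (7.02%), so the 0 does not set chromosome 9 apart. As background, the start of chromosome 9 in this assembly carries satellite-type repeats. Of the 12, 11 recur with the same ends in TKO DAXX, so the absence of WT DAXX beside them depends on the labels of both lists.

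Counting overlapping peaks, more peaks of each factor lay within 10 kb of the other factor than of IgG, and the excess was in the overlapping peaks. Within 10 kb of a DAXX peak there were 49 ATRX peaks, or 3.4% (2.53 to 4.47), and within 10 kb of an IgG peak 21, or 1.46% (0.905 to 2.22). For DAXX, 50 peaks (8.77%, 6.58 to 11.4) were within 10 kb of an ATRX peak and 16 (2.81%, 1.61 to 4.52) within 10 kb of an IgG peak. Without the peaks that overlap the list in question, 16 of 1407 ATRX peaks (1.14%, 0.651 to 1.84) were within 10 kb of DAXX and 19 of 1438 (1.32%, 0.797 to 2.06) within 10 kb of IgG. For DAXX it was 18 of 538 (3.35%, 1.99 to 5.24) near ATRX and 15 of 569 (2.64%, 1.48 to 4.31) near IgG. The intervals overlap in both cases, so no nearness beyond direct overlap was shown at this distance. The median distance from an ATRX peak to the nearest DAXX peak was 1140 kb, and to the nearest IgG peak 4900 kb. From a DAXX peak it was 319 kb to ATRX and 4890 kb to IgG. The lists differ in length, with 1440 ATRX, 570 DAXX and 402 IgG peaks, and a longer list is nearer to any point. These distances, and the shares within 10 kb, are therefore set by list length as well as by place.

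**Figure D5:**
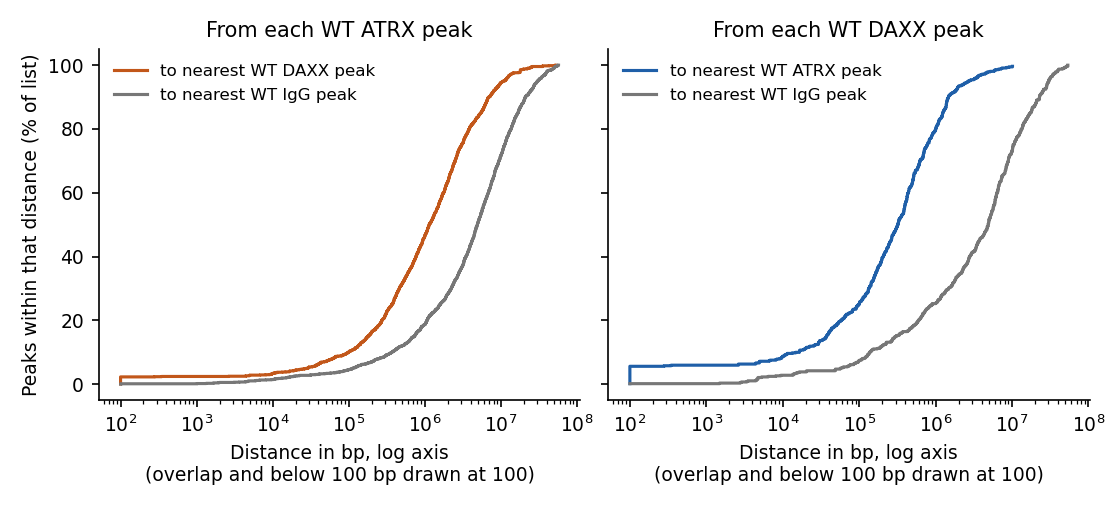
Curves give the percentage of WT ATRX peaks (left) and WT DAXX peaks (right) whose nearest peak of the named list lies within the distance on the log axis, in bp. The step at the left edge is direct overlap, 2.29% and 5.61% for the factors, and at 10 kb the curves to IgG peaks stand at 1.46% and 2.81%.

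The lists were also compared on the scale of 5 Mb. Of 537 bins, 415 held an ATRX peak, 270 a DAXX peak, 242 both, and 28 a shared region. Spearman's rho between the numbers of ATRX and DAXX peaks over the 537 bins was 0.47, against 0.11 for ATRX with IgG and 0.08 for DAXX with IgG. Bins share mappability and gene density within a genome, and the rho is given as a description.

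The 5 highest peaks of each list that met no other WT list were chosen for that absence of overlap, so it is no result. For ATRX they were the sites on chromosome 9 at 2,999,985 (416.54), chromosome 7 at 87,938,261 (381.03), chromosome 3 at 154,135,877 (328.6), chromosome 18 at 24,829,925 (263.8) and chromosome 2 at 130,034,062 (250.11). Their lengths were 1239 to 2040 bp, against a median of 325 bp for the list, and the nearest DAXX peak was between 1160 and 18000 kb away. For DAXX they were the sites on chromosome 5 at 123,097,695 (1007.39), chromosome 6 at 108,135,188 (884.23), chromosome 4 at 126,754,169 (876.24), chromosome 2 at 25,211,458 (776.29) and chromosome 9 at 44,169,353 (736.54). They were 696 to 804 bp long, against a median of 553.5 bp for the list. Their nearest ATRX peak was 22.2 to 896 kb away, and in 3 of the 5 it was nearer than the median of 358 kb over the unshared DAXX peaks, at 51.5 kb on chromosome 4, 33.5 kb on chromosome 2 and 22.2 kb on chromosome 9. The 2 ATRX peaks on an IgG peak, at 125,866,703 and 125,867,159 on chromosome 5, lay under the same IgG peak, and each scored 71.13. The DAXX peak on an IgG peak, on chromosome 2 at 18,460,870, scored 100.8.

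No difference in length was shown between shared and unshared peaks. Shared ATRX peaks had a median length of 353 bp against 325 bp for the unshared ones. The longest quartile of the ATRX list held 15 shared peaks of 361 (4.16%, 2.34 to 6.76) and the shortest 6 of 362 (1.66%, 0.611 to 3.57), with intervals that overlap. Shared DAXX peaks had a median length of 577 bp against 553.5 bp, and the order turned with the recurring peaks left out (515.5 against 554.5 bp).

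On the full lists, regions with both factors in WT cells were more often listed for ATRX in TKO cells than other WT peaks. Of the 8 regions listed there, 6 hold an ATRX peak that recurs in TKO DAXX. The TKO ATRX list, which shares 0 peaks with the same ends with the WT lists, overlapped 9 of 33 shared ATRX peaks (27.3%, 13.3 to 45.5) and 46 of 1407 unshared ones (3.27%, 2.40 to 4.34). It overlapped 8 of 32 shared DAXX peaks (25%, 11.5 to 43.4) and 6 of 538 unshared ones (1.12%, 0.410 to 2.41). On these full lists the intervals do not overlap in either case, though the 32 regions enter both counts. Shared ATRX peaks also stood higher in score than unshared ones (median percentile 89.9 against 49.2), while shared DAXX peaks did not (40.1 against 51.1). Recurrence at like scores was not compared. Without the ATRX peaks that recur in TKO DAXX, the numbers were 3 of 24 shared ATRX peaks (12.5%, 2.66 to 32.4) and 6 of 666 unshared ones (0.901%, 0.331 to 1.95). For DAXX, with sharing counted on the same shorter ATRX list, they were 3 of 24 (12.5%, 2.66 to 32.4) and 11 of 546 (2.01%, 1.01 to 3.58), with intervals that overlap. A peak of the TKO DAXX list lay in 9 of the 32 regions, and in all 9 an ATRX peak of the region had the same ends there. Among the unshared WT DAXX peaks 1 of 538 met the TKO DAXX list. In all, 6 regions were in both TKO factor lists, 2 in TKO ATRX only, 3 in TKO DAXX only and 21 in neither.

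The 6 regions in both TKO lists are those on chromosome 18 at 75,759,239 and 73,607,326, chromosome 5 at 33,014,588, chromosome 9 at 123,842,855, chromosome 2 at 26,502,151 and chromosome 1 at 184,430,835. The 2 found in TKO ATRX and not in TKO DAXX were the regions on chromosome 10 at 127,111,639 and chromosome 13 at 111,158,743. The 3 found in TKO DAXX and not in TKO ATRX were chromosome 5 at 72,559,140, chromosome 7 at 7,230,576 and chromosome X at 56,098,202. None of the 5 copy-like regions on chromosomes 12 and 14 was in a TKO factor list.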

How the data were processed

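Peak lists of 1 library per group were analysed, with groups taken from the sample titles. The submitters' processing notes name Bowtie2, Picard and mm9. For the peak caller, the version, settings and control libraries were not stated in the labels, though peak names and table columns are those of MACS, per the file headers. The score is the authors' deposited value per peak. For IgG, the authors deposited tables with tag counts, peak length and fold enrichment (a ratio). BED starts were changed to count from 1. Overlaps and distances, edge to edge, were computed with Python 3.11.15, numpy 2.4.6 and pandas 2.3.3, tested on simulated lists, and checked against bedtools 2.31.1, which differed in 0 of 4 counts. Intervals came from scipy 1.17.1 (Clopper-Pearson). Percentiles rank scores within a list, and quartiles follow them.

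Regions were named by a fixed rule: the 12 shared regions with the best mean percentile, those in the first 10 Mb or in all 4 factor lists, the 3 shortest overlaps, the 3 closest misses and the 5 highest peaks of each list outside the other WT lists. The members and rules were chosen with earlier results of these data known. The copy-like regions, the dense bins, the chromosome 9 window and the group of chromosomes without a shared region were picked after their values were seen. The reference tables are for another build than mm9, so peaks were not assigned to genes, and the planned gene comparison and sequences are not given.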

Additional observations from a re-analysis of the deposited data

How the results depend on the processing

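Of 93 recomputed values, 72 stayed within the interval of the reported value or, for numbers of regions, within 1.5 times of it, 17 moved and 4 turned direction. Asking for an overlap of 50% of the shorter peak left the values as they were. Leaving out peaks on an IgG peak of either line removed 4 ATRX and 2 DAXX peaks, none of them shared. These settings could move little and are counted among the 72. Counting within 10 kb gave 3.4% of ATRX and 8.77% of DAXX peaks. A score of at least 70 gave 0.903% of ATRX peaks and 12 regions, and one of at least 100 gave 2.11% of DAXX peaks and 4 regions. The upper 50% of each list gave 1.25%, 2.81% and 8 regions. With the 570 highest peaks of each list 4.39% of ATRX peaks were shared. Without the peaks that recur in TKO DAXX it was 3.48%. With the TKO DAXX list in place of WT ATRX the values were 0.489%, 1.75% and 10 regions. The median length of shared DAXX peaks fell below that of unshared ones within 1 kb (525 bp) and without the recurring peaks (515.5 bp); the cause was not tested. Counting copies once (29 regions) and leaving out the first 10 Mb of chromosome 14 (28 regions) were added after the data were seen. So were 3 other comparisons. In the first 10 Mb of chromosomes the share of shared peaks fell below that of unshared ones without that part of chromosome 14 (3.45% for ATRX, 3.57% for DAXX). The share of shared ATRX peaks on TKO ATRX moved to 12.5% without the recurring peaks. Without overlapping peaks 1.14% of ATRX peaks were within 10 kb of DAXX and 3.35% of DAXX peaks within 10 kb of ATRX. The comparison with gene starts was not run. No paired analysis was possible because each group is 1 library. Unknown depth limits what a missing peak shows.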
